A study of Homo sapiens with 36 samples.

Results

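The genes described here are 9 members of the VEGF, endothelin and related angiogenic signalling systems: the ligands VEGFA, VEGFB, VEGFC and PGF, the receptor KDR, the co-receptors NRP1 and NRP2, the secreted proteoglycan ESM1 and the peptide precursor EDN3. They were chosen by symbol from a table of 15186 genes, and all 9 had a row and passed the filter on low counts. RNA sequencing was done on U2OS, a human osteosarcoma cell line, here carrying a stably transfected glucocorticoid receptor alpha (GRα) in every group, controls included. Cells received a pair of siRNAs and 48 h later were given either 100 nM dexamethasone (dex), a synthetic glucocorticoid that activates the receptor, or ethanol as vehicle, for 8 h. The 6 siRNA conditions were siNSsiNS (control siRNA only), siHic5siNS, siCHD9siNS, siBRMsiNS, siCHD9siHic5 and siBRMsiHic5, each with 3 vehicle and 3 dex libraries made on different days, which gave 12 groups and 36 libraries. Hic-5 is a LIM-domain coregulator of nuclear receptors encoded by TGFB1I1, and CHD9 and BRM (encoded by SMARCA2) are chromatin remodelers. The study asked whether responses to dex that appear without Hic-5 need either remodeler.

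VEGF ligands are secreted proteins that bind receptor tyrosine kinases on endothelial cells and drive the sprouting and permeability of vessels. VEGFA and PGF act on blood vessels, VEGFC chiefly on lymphatic vessels, and VEGFB is better known for fatty acid handling and heart vessels. KDR, also called VEGFR2, is the main signalling receptor for VEGFA, and NRP1 and NRP2 are co-receptors that also bind class 3 semaphorins. ESM1, or endocan, is made by tip cells of new vessels and by tumours, and endothelins are short peptides that act through G protein-coupled receptors on vessel tone and on neural crest cells. Glucocorticoids are known as inhibitors of angiogenesis, and bone-forming cells are a known source of VEGF.

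Library totals ran from 27.4 M to 47.1 M counts. The siRNA targets were checked in the vehicle libraries against siNSsiNS. TGFB1I1 stood at 24.8% of the control in siHic5siNS, 26.2% in siCHD9siHic5 and 18.3% in siBRMsiHic5, and SMARCA2 at 28.9% in siBRMsiNS and 24.9% in siBRMsiHic5. CHD9 stood at 67.9% of the control in siCHD9siNS but at 139% in siCHD9siHic5, against that label, and at 51.1% in siBRMsiHic5, whose label does not name it. Those libraries are therefore called the libraries labelled siCHD9siHic5, and no difference in them is assigned to loss of CHD9. The receptor transcript, NR3C1, stood at 148% of the control in siHic5siNS (adjusted p = 0.00261). A ribosomal RNA transcript, RNA28S5, was the largest single gene in replicates 2 and 3 of both siBRM conditions, in replicate 3 of siHic5siNS and in the siNSsiNS vehicle replicate 3, at 1.92% to 7.51% of their counts.

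Levels are given as CPM, the read counts of a gene divided by its library total after scaling to the upper quartile of each library, in the usual per-million unit. Each difference was tested with edgeR's quasi-likelihood test over all 15179 genes that passed the filter, and a gene is called where the Benjamini-Hochberg adjusted p is under 0.05. For dex the test was run in an unpaired fit of the group means and again in a paired fit, with a term for each vehicle and dex library pair of the same condition and replicate number.

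Promoter sequences from RefSeq were matched for 6 of the 9 genes. KDR and ESM1 are shown because they moved in opposite directions with dex. Both are on the minus strand of GRCh38.p14 and are written 5′ to 3′. The KDR stretch, chr4:55125596-55125845, is the 250 bases before the start site, and its capitals mark the 2 matches to GGGCGG or its complement, the GC box bound by Sp1-type factors. The ESM1 stretch, chr5:54985600-54985629, covers 30 bases from -36 to -7, and its capitals mark TATAAA and ACGTG, the core of a hypoxia response element.
KDR: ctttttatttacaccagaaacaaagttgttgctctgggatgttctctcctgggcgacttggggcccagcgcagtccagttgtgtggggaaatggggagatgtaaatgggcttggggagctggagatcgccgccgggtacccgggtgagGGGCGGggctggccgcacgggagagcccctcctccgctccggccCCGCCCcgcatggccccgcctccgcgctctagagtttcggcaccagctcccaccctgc
ESM1: agtgTATAAAactcataaACGTGtaggcag

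In windows from 250 bases before to 50 after the start site, searched on both strands, the KDR promoter held 2 GC boxes, first bases at -102 and -58, and none of the other motifs searched. The ESM1 promoter held TATAAA at -32, ACGTG at -18 and GCGTG at -153, and no GC box. GCGTG also occurred once in VEGFB, in VEGFC and in each of the 2 PGF promoters. VEGFC had GC boxes at -213 and -189, PGF had 4 in one promoter and 2 in another, NRP2 had 3 and VEGFB had 9, some of which overlap. GGGCGG occurred in 45% of 35116 promoters of this length, TATAAA in 11.5%, ACGTG in 21.4% and GCGTG in 36.5%. The palindromic glucocorticoid response element, searched on both strands with its central bases free, occurred in 0.39% of them and in none of the promoters matched here.

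Among the 9 genes, levels per kilobase of exon spanned a wide range. Averaged over the 36 libraries, VEGFB stood at 42.2 CPM per kilobase, VEGFA at 24.6, ESM1 at 14.3, NRP1 at 14.2, VEGFC at 10.9 and PGF at 5.22. EDN3 stood at 0.427, KDR at 0.377 and NRP2 at 0.0633 CPM per kilobase. The cells thus held far more ligand and NRP1 transcript than transcript of the signalling receptor KDR. Groups differed least for VEGFB, whose highest group mean was 1.53 times its lowest, and most for EDN3, at 93.1 times. Ordered by group mean, neighbouring groups overlapped in their libraries at all 11 steps for VEGFA, VEGFB and NRP2. Elsewhere 1 step was free of overlap for each of VEGFC, PGF, NRP1 and ESM1, and 2 for each of KDR and EDN3. In KDR these lay below siCHD9siNS dex (6.39 CPM, over 3.69 in siCHD9siHic5 dex) and below siBRMsiNS vehicle (0.671, over 0.285 in siCHD9siHic5 vehicle). In EDN3 they lay below siNSsiNS dex (1.93 CPM, over 1.02 in siCHD9siNS dex) and below siCHD9siNS vehicle (0.0995, over 0.0344 in siCHD9siHic5 vehicle). The share of steps free of overlap over all genes was not computed, so nothing is read from these counts of steps.

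With dex the EDN3 and KDR transcripts were higher and those of VEGFA, VEGFC and ESM1 mostly lower. EDN3 was higher in the dex library of all 18 pairs and KDR in all 18, while VEGFA was lower in all 18, VEGFC in 17, ESM1 in 17 and NRP1 in 16. VEGFB was higher in 12 of 18 pairs, PGF in 10 and NRP2 in 9. These counts of pairs were the same with TMM factors and with no scaling factors, save for VEGFB, which was higher in 11 pairs without factors. In the paired fit the rises of EDN3 were called in all 6 conditions and those of KDR in 4, and falls were called for VEGFA in 3 conditions, ESM1 in 3, VEGFC in 2, and NRP1 and VEGFB in 1 each. PGF was called once, as a rise with siHic5siNS.

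The background of calls differed by fit and condition. In the unpaired fit dex changed 0.343% of tested genes with siNSsiNS, 0.876% with siHic5siNS, 0.949% with siCHD9siNS, 0.382% with siBRMsiNS, 0.455% in the libraries labelled siCHD9siHic5 and 0.501% with siBRMsiHic5. Of the 9 genes, 1, 0, 2, 0, 2 and 1 were called in that order, all of them rises of EDN3 or KDR. In siHic5siNS and siBRMsiNS, where edgeR's unpaired fit called 0, 4 and 3 of the 9 had an unadjusted p under 0.05. Of all 15179 genes, 893 and 535 had such a p there. DESeq2 called 2 and 1 of the 9, and its share of all genes is not given here. In the paired fit the shares of all genes were 2.5%, 8.93%, 24.1%, 3.91%, 4.74% and 5.95%, and 3, 6, 5, 1, 3 and 3 of the 9 were called. The count of 5 of 9 with siCHD9siNS is read against the 24.1% of all genes that passed there. The 6 dex comparisons use separate libraries.

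**Figure D1:**
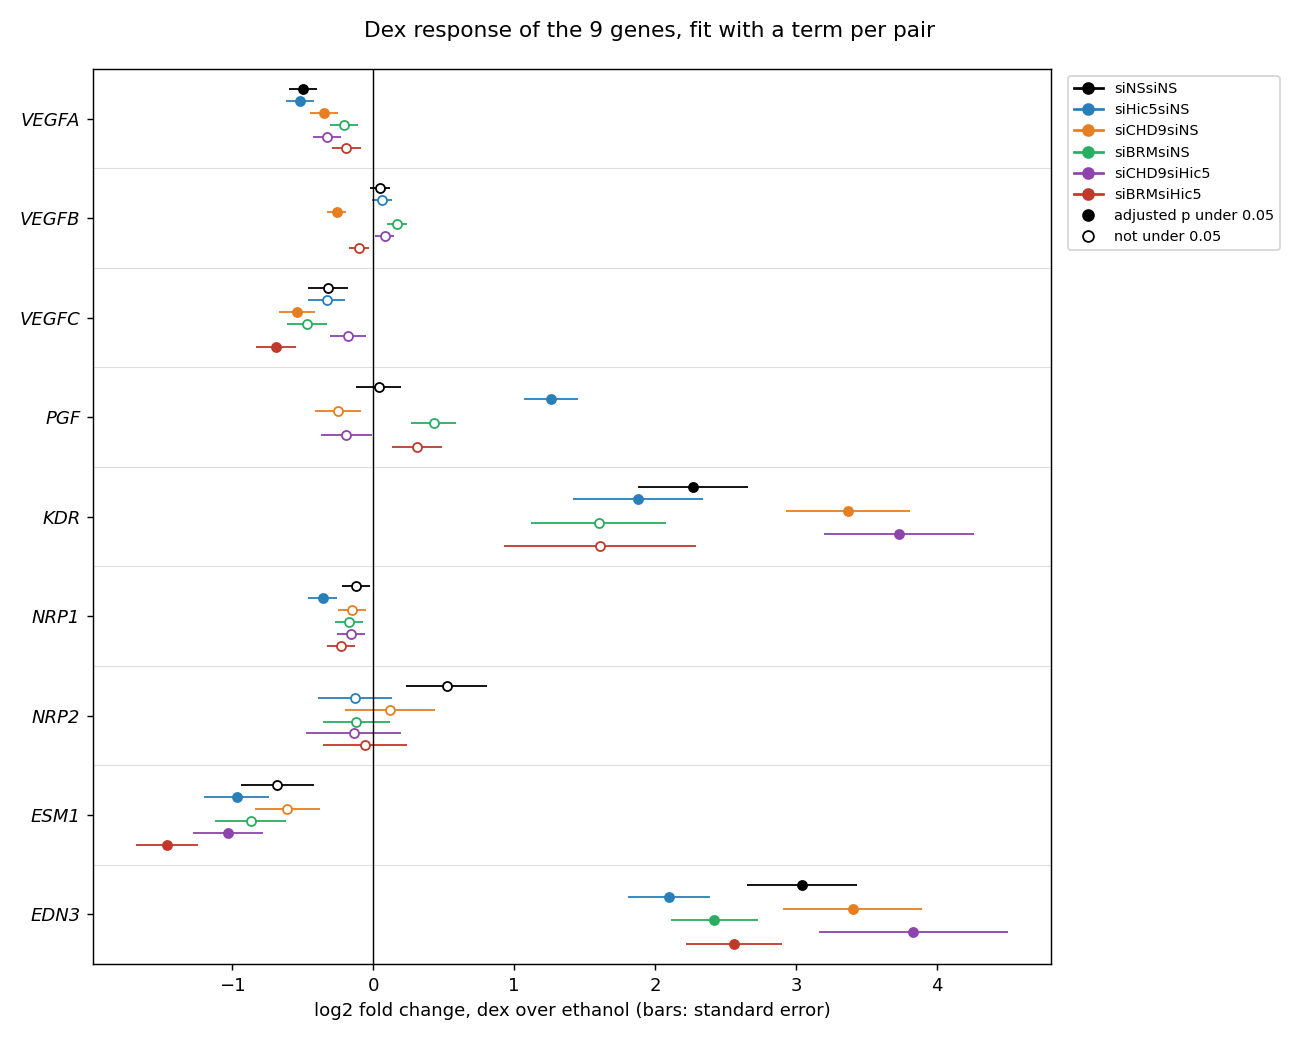
Log2 fold change of dex over ethanol for the 9 genes in each siRNA condition, from the paired fit, with bars for the standard error (3 pairs each). Filled points passed an adjusted p of 0.05. EDN3 and KDR lie to the right of 0 in every condition, and VEGFA, VEGFC, NRP1 and ESM1 to the left.

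VEGFA (chr6:43770184-43786487, plus strand), the main blood vessel growth factor, stood at 76.1, 88 and 72.5 CPM in the siNSsiNS vehicle libraries (replicates 1 to 3) and at 53.7, 51.3 and 61.8 with dex. The groups did not overlap, and the change of -0.50 ± 0.10 (log2, SE) passed the paired fit (adjusted p = 0.0108) but not the unpaired one (adjusted p = 1). With siHic5siNS the vehicle libraries stood at 99.6, 164 and 127 CPM and the dex libraries at 83.2, 89.1 and 94.5. That fall of 0.52 ± 0.10 on the log2 scale was called in the paired fit (adjusted p = 0.00287), against 0.328 unpaired. With siCHD9siNS, vehicle libraries at 152, 120 and 130 CPM faced dex libraries at 114, 92.8 and 108, a change of -0.35 ± 0.10 (paired adjusted p = 0.0172, unpaired 0.574). All dex values lay below all vehicle values in these 3 conditions, with siBRMsiNS and in the libraries labelled siCHD9siHic5, but not with siBRMsiHic5. Outside the 3 called conditions VEGFA moved by -0.33 ± 0.10 in the libraries labelled siCHD9siHic5, -0.21 ± 0.10 with siBRMsiNS and -0.19 ± 0.10 with siBRMsiHic5. None of these changes passed (paired adjusted p of 0.0789, 0.25 and 0.299). Leaving out a pair ended the call with siNSsiNS for pair 1 or 2 (adjusted p of 0.104 and 0.192), with siHic5siNS for pair 2 (0.0675) and with siCHD9siNS for pair 1 or 2 (0.135 and 0.0669).

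VEGFC (chr4:176683538-176792727, minus strand), the ligand of lymphatic growth, was called lower with dex in 2 conditions, in the paired fit only. With siBRMsiHic5 it stood at 22, 26.2 and 26.5 CPM in vehicle and at 12.2, 17 and 17.2 with dex. The groups were apart, and the change was -0.69 ± 0.14 (paired adjusted p = 0.0046, unpaired 0.287). With siCHD9siNS the vehicle libraries stood at 36.8, 20.2 and 22.6 CPM and the dex libraries at 21.3, 17.2 and 15.3. These overlapped between groups but each dex library lay below its own partner, and the change was -0.54 ± 0.13 (paired adjusted p = 0.00852, unpaired 0.289), lost without pair 1 (0.147). In the other conditions VEGFC moved by -0.18 to -0.47 and was not called. The 1 pair in which it was higher with dex was pair 2 of the libraries labelled siCHD9siHic5, from 17.1 to 22.4 CPM.

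PGF (chr14:74941834-74955784, minus strand), placental growth factor, which binds FLT1, rose with dex where Hic-5 siRNA was used alone. The siHic5siNS vehicle libraries held 3.14, 5.71 and 2.2 CPM and the dex libraries 8.19, 10.6 and 6.67. Every dex value lay above every vehicle value, by 2.61, 1.85 and 3.04 times within pairs. The fitted rise was 2.31-fold in the unpaired fit (adjusted p = 0.187) and 2.4-fold in the paired fit (adjusted p = 2.57e-04), and it stayed called without any one pair (highest adjusted p 0.00594). With siNSsiNS it stood at 16, 16.3 and 17.9 CPM in vehicle and 15.8, 15.3 and 20.9 with dex, a change of 0.04 ± 0.16 in the paired fit. The highest siHic5siNS dex library, at 10.6 CPM, was still below the lowest siNSsiNS library, at 15.3. With siBRMsiNS the replicates were far apart, from 17.3, 17.9 and 7.72 CPM in vehicle to 31.5, 21.7 and 8.35 with dex, and the rise of 0.43 ± 0.16 was not called (paired adjusted p = 0.139).

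VEGFB (chr11:64234538-64238793, plus strand) stood between 40.5 and 101 CPM in all libraries. Its one called dex change was a fall of 0.26 ± 0.07 on the log2 scale with siCHD9siNS in the paired fit (adjusted p = 0.0123, unpaired 0.754), which was lost without pair 1 (0.187). There it went from 61, 66.3 and 69.2 CPM in vehicle to 45.2, 56.7 and 62.9 with dex. In the other 5 conditions the paired estimates ran from -0.10 to 0.17.

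**Figure D2:**
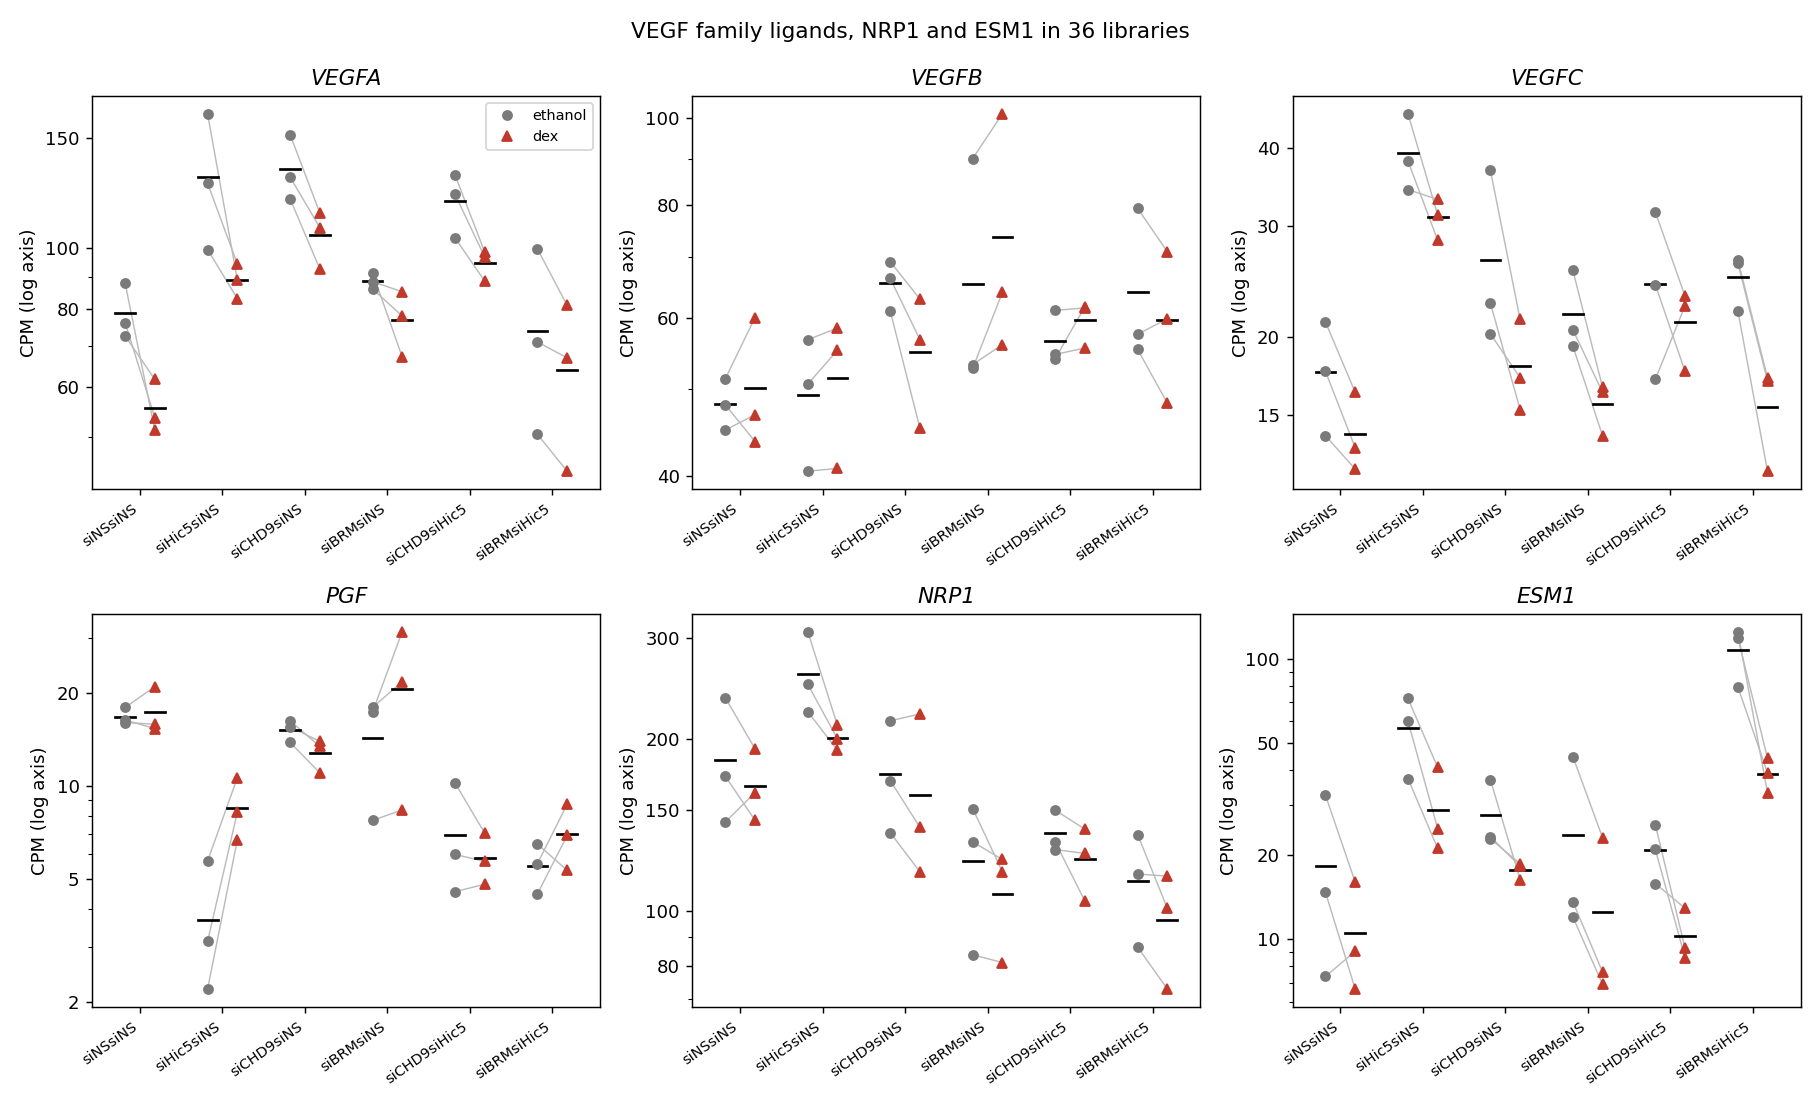
CPM (log axis) of the 4 VEGF family ligands, NRP1 and ESM1 in the 36 libraries, ethanol as circles and dex as triangles, with grey lines joining libraries of the same replicate number and black bars at the mean of 3. VEGFA falls along all 18 lines, PGF is lowest in siHic5siNS vehicle at 2.2 to 5.71, and ESM1 is highest in siBRMsiHic5 vehicle at 79.4 to 125.

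KDR (chr4:55078259-55125595, minus strand), the main VEGFA receptor, was raised by dex from a low level. With siNSsiNS the vehicle libraries held 1.34, 2.63 and 0.649 CPM (40, 79 and 23 counts) and the dex libraries 10.8, 5.94 and 4.95 (356, 192 and 188 counts). The groups did not overlap, and the paired fit called a 4.81-fold rise (adjusted p = 0.00253), while the unpaired fit stopped just short (0.0546). With siCHD9siNS it went from 0.272, 1.62 and 0.216 CPM to 8.12, 6.17 and 4.86. That rise was called in both fits, at 9.4-fold unpaired (adjusted p = 0.00215) and 10.3-fold paired (8.96e-05), although vehicle replicate 2 stood well above the other two. In the libraries labelled siCHD9siHic5 it went from 0.318, 0.342 and 0.195 CPM to 4.36, 2.25 and 4.48, called at 13.1-fold unpaired (adjusted p = 0.00129) and 13.3-fold paired (2.90e-04). The latter vehicle libraries held 31 counts in all against 423 with dex, a ratio of 14 per library total with a 95% counting interval of 9.71 to 20.9.

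With siHic5siNS KDR went from 0.582, 0.975 and 0.895 CPM to 3.13, 1.75 and 4.28, again without overlap. The rise was 3.68-fold in the paired fit (adjusted p = 0.0144) and not called unpaired (0.124), and it was lost without pair 1 (0.0963) or pair 3 (0.124). The siNSsiNS call in the paired fit was lost without pair 1 (0.0856), whereas both calls with siCHD9siNS and in the libraries labelled siCHD9siHic5 stayed under every library or pair left out. Neither siBRM condition passed either fit. KDR went from 1.11, 0.37 and 0.533 CPM to 2.62, 1.81 and 1.49 with siBRMsiNS (3.04-fold, paired adjusted p = 0.0703) and from 0.37, 0.218 and 0.21 to 1.16, 0.651 and 0.659 with siBRMsiHic5 (3.06-fold, 0.185). In each of them all dex values lay above all vehicle values.

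EDN3 (chr20:59300427-59325992, plus strand), the precursor of endothelin 3, rose with dex in every condition. With siNSsiNS the vehicle libraries held 0.234, 0.0667 and 0.367 CPM (7, 2 and 13 counts) and the dex libraries 2.63, 1.64 and 1.53 (87, 53 and 58 counts). The groups were far apart, and the rise was 8.37-fold unpaired (adjusted p = 0.021) and 8.21-fold paired (1.52e-04). With siHic5siNS, which had the highest EDN3 in both treatments by group mean, values went from 0.42, 1.28 and 0.596 CPM to 2.62, 4.32 and 2.67. Here the paired fit called a 4.3-fold rise (adjusted p = 1.22e-04), and the unpaired fit did not call it (0.0783). With siBRMsiNS values went from 0.95, 0.344 and 0.301 CPM to 3.25, 2.45 and 2.3, a 5.35-fold rise in the paired fit (adjusted p = 1.14e-04, unpaired 0.0714). With siBRMsiHic5 they went from 1.07, 0.109 and 0.21 CPM to 4.58, 1.82 and 1.16, a 5.91-fold rise (paired adjusted p = 1.34e-04, unpaired 0.0426). Replicate 1 was the highest of its group in both treatments of the siBRM conditions.

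The lowest EDN3 levels were in the conditions labelled with CHD9 siRNA. With siCHD9siNS vehicle libraries held 0.0815, 0.152 and 0.0647 CPM, or 11 counts in all, and dex libraries 1.23, 0.59 and 1.25 CPM, or 110 counts. The rise was 10.4-fold unpaired (adjusted p = 0.0142) and 10.6-fold paired (2.02e-04). The vehicle libraries labelled siCHD9siHic5 held 1, 1 and 2 counts of EDN3 and the dex libraries 22, 12 and 27. The ratio per library total was 15.6, with an exact 95% counting interval of 5.8 to 59.2, and the paired fit gave 14.2-fold (adjusted p = 0.00194, unpaired 0.0499). Counts so low leave the size of this rise wide open, and the interval covers counting error only. All 6 EDN3 calls of the paired fit stayed under each pair left out, the highest adjusted p being 0.0345. The 4 unpaired calls did not hold as well. The siNSsiNS call was lost without any one vehicle library or without dex replicate 1 (highest adjusted p 0.249, without vehicle replicate 2). The siCHD9siNS call was lost without replicate 1 or 3 of either treatment (highest 0.128), and the siCHD9siHic5 call without any one of its 6 libraries (highest 0.296). The siBRMsiHic5 call was lost without vehicle replicate 2 (0.315) or 3 (0.407) or dex replicate 1 (0.556) or 2 (0.0682). Without dex replicate 1 that estimate went from 2.53 to 1.78 (log2). The siCHD9siHic5 call was also lost with TMM factors (0.0509) and with the stricter filter on low counts (0.0586).

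**Figure D3:**
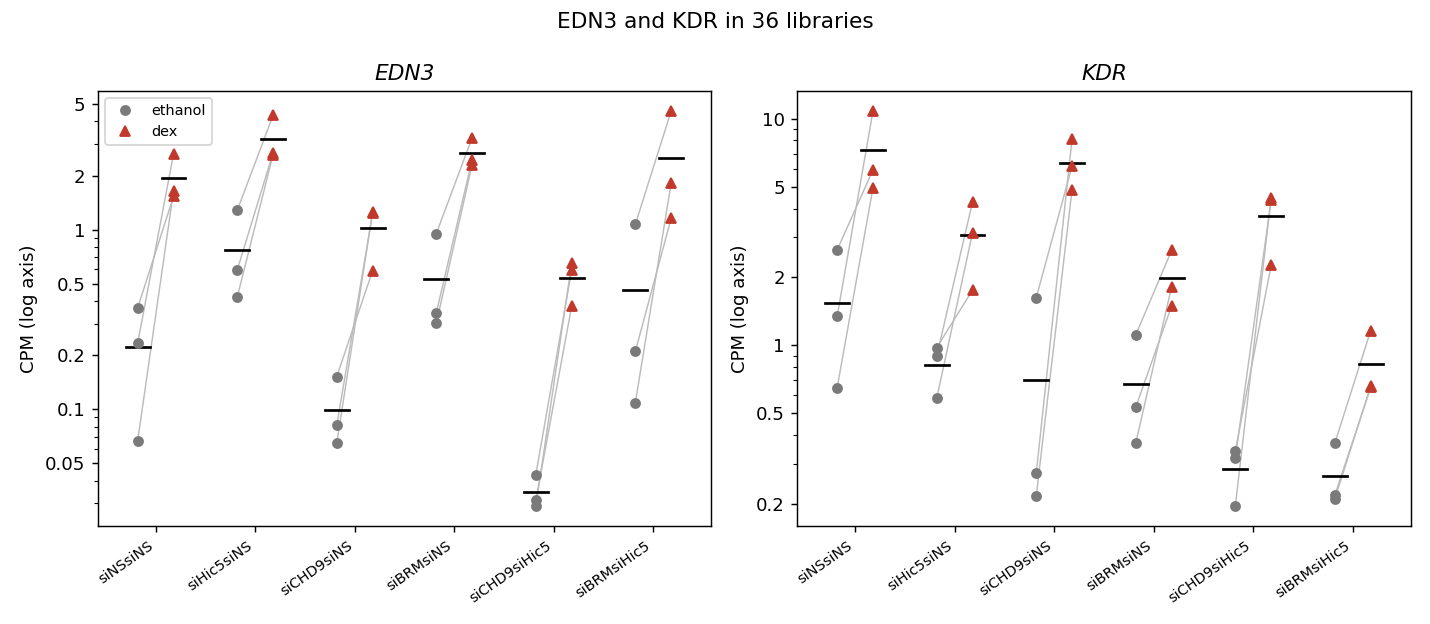
CPM (log axis) of EDN3 and KDR in the 36 libraries, ethanol as circles and dex as triangles, with grey lines joining libraries of the same replicate number and black bars at the mean of 3. Every line rises, and the vehicle libraries labelled siCHD9siHic5 are the lowest for EDN3, at 0.0289 to 0.0432.

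ESM1 (chr5:54977864-55022671, minus strand) fell with dex in 3 conditions, in the paired fit only. With siBRMsiHic5 it stood at 79.4, 119 and 125 CPM in vehicle and at 39.2, 44.2 and 33.3 with dex. The groups were far apart, and the paired fit gave a change of -1.46 ± 0.22 (adjusted p = 5.38e-04, unpaired 0.365) that stayed called without any one pair. With siHic5siNS it went from 72.2, 37.4 and 59.9 CPM to 41, 21.1 and 24.8, a fall of 0.97 ± 0.23 on the log2 scale (paired adjusted p = 0.0105, unpaired 0.851), lost without pair 3 (0.0935). Here the groups overlapped but each dex library lay below its partner. In the libraries labelled siCHD9siHic5 it went from 20.9, 15.8 and 25.6 CPM to 8.59, 12.9 and 9.28, a change of -1.03 ± 0.25 (0.0206, unpaired 1), lost without pair 1 (0.161) or pair 3 (0.238). The other conditions gave -0.68 ± 0.26 with siNSsiNS, -0.61 ± 0.23 with siCHD9siNS and -0.87 ± 0.25 with siBRMsiNS, not called at paired adjusted p of 0.224, 0.0647 and 0.0535. Pair 2 of siNSsiNS went the other way, from 7.37 to 9.06 CPM.

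NRP1 (chr10:33177492-33336262, minus strand), the more abundant neuropilin, stood between 73 and 308 CPM in all libraries. A dex fall was called with siHic5siNS only, in the paired fit, from 249, 308 and 223 CPM to 200, 211 and 191 (-0.36 ± 0.10, adjusted p = 0.0249, unpaired 1). All 3 dex libraries lay below the vehicle libraries, but the call was lost without pair 1 (0.0775) or pair 2 (0.229). NRP2 (chr2:205681990-205798133, plus strand), the neuropilin of lymphatic vessels, held 7 to 80 counts per library and was not called for dex in any condition. Its paired estimates ran from -0.14 ± 0.34 to 0.52 ± 0.29.

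Whether the dex response differed between conditions was tested directly. The 5 differences were siHic5siNS, siCHD9siNS and siBRMsiNS each minus siNSsiNS, then the libraries labelled siCHD9siHic5 and siBRMsiHic5 each minus siHic5siNS. The first 3 share the siNSsiNS libraries and the last 2 the siHic5siNS libraries. None of the 9 genes was called in any of the 5 by edgeR in the unpaired fit, where 0%, 0.00659%, 0%, 0% and 0% of all genes passed, and none by DESeq2. At an unadjusted p under 0.05 there were 1, 0, 0, 2 and 0 of the 9 in the unpaired fit, beside 126, 464, 25, 117 and 302 of all 15179 genes. The paired fit called 0.184%, 4.03%, 0%, 0.145% and 0.184% of all genes. At an unadjusted p under 0.05 it held 1, 1, 0, 2 and 2 of the 9, beside 1174, 3220, 614, 1132 and 2141 of all 15179 genes.

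The 1 gene called was PGF, whose dex response in the libraries labelled siCHD9siHic5 was lower than in siHic5siNS by 1.45 ± 0.26 on the log2 scale in the paired fit (adjusted p = 0.0356, unpaired 1). In those libraries PGF went from 4.54, 10.2 and 5.99 CPM in vehicle to 4.8, 7.02 and 5.69 with dex, where siHic5siNS had risen in all 3 pairs. The call was lost under each of the 6 pairs left out, with adjusted p between 0.0969 and 0.147 and estimates between -1.26 and -1.68. PGF also had the largest difference of siHic5siNS minus siNSsiNS among the 9, at 1.22 ± 0.25 (paired adjusted p = 0.0556). For siBRMsiHic5 minus siHic5siNS it was -0.95 ± 0.26 (0.116), with 4.47, 5.6 and 6.47 CPM in vehicle and 6.9, 8.71 and 5.32 with dex.

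The dex folds of KDR and EDN3 ranged widely between conditions, but no difference between them passed the test. KDR responded by 1.85 ± 0.76 more (log2) in the libraries labelled siCHD9siHic5 than in siHic5siNS (paired adjusted p = 0.638) and by 1.10 ± 0.62 more with siCHD9siNS than with siNSsiNS (0.318). EDN3 responded by 1.72 ± 0.84 more in the libraries labelled siCHD9siHic5 than in siHic5siNS (0.679) and by 0.93 ± 0.53 less with siHic5siNS than with siNSsiNS (0.718). VEGFA differed by at most 0.33 ± 0.15 in any of the 5, ESM1 by at most 0.48 ± 0.31, and the paired adjusted p of both stayed at 0.317 or more. A difference that did not pass is not shown to be absent.

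The siRNA effects were then compared in the vehicle libraries, without hormone. Against siNSsiNS, siHic5siNS had 4 genes higher (VEGFA, VEGFC, ESM1 and EDN3) and 1 lower (PGF). siCHD9siNS had 2 higher (VEGFA and VEGFC), and siBRMsiNS had none called by edgeR or DESeq2. In siBRMsiNS 4 of the 9 had an unadjusted p under 0.05, beside 3909 of all 15179 genes. The libraries labelled siCHD9siHic5 had VEGFA higher and PGF, KDR and EDN3 lower, and siBRMsiHic5 had VEGFC and ESM1 higher and PGF, KDR and NRP1 lower. These counts stand against a wide background, since 53.1%, 32.3%, 6.45%, 52.6% and 48.9% of all tested genes were called in the 5 comparisons in that order. Counts of 2 to 5 of 9 are near those shares, so nothing is read from them, and the sizes are given below. The comparisons share the siNSsiNS vehicle libraries, and those libraries also enter the dex response of siNSsiNS. In bulk RNA, fewer cells of a kind and less RNA per cell cannot be told apart.

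**Figure D4:**
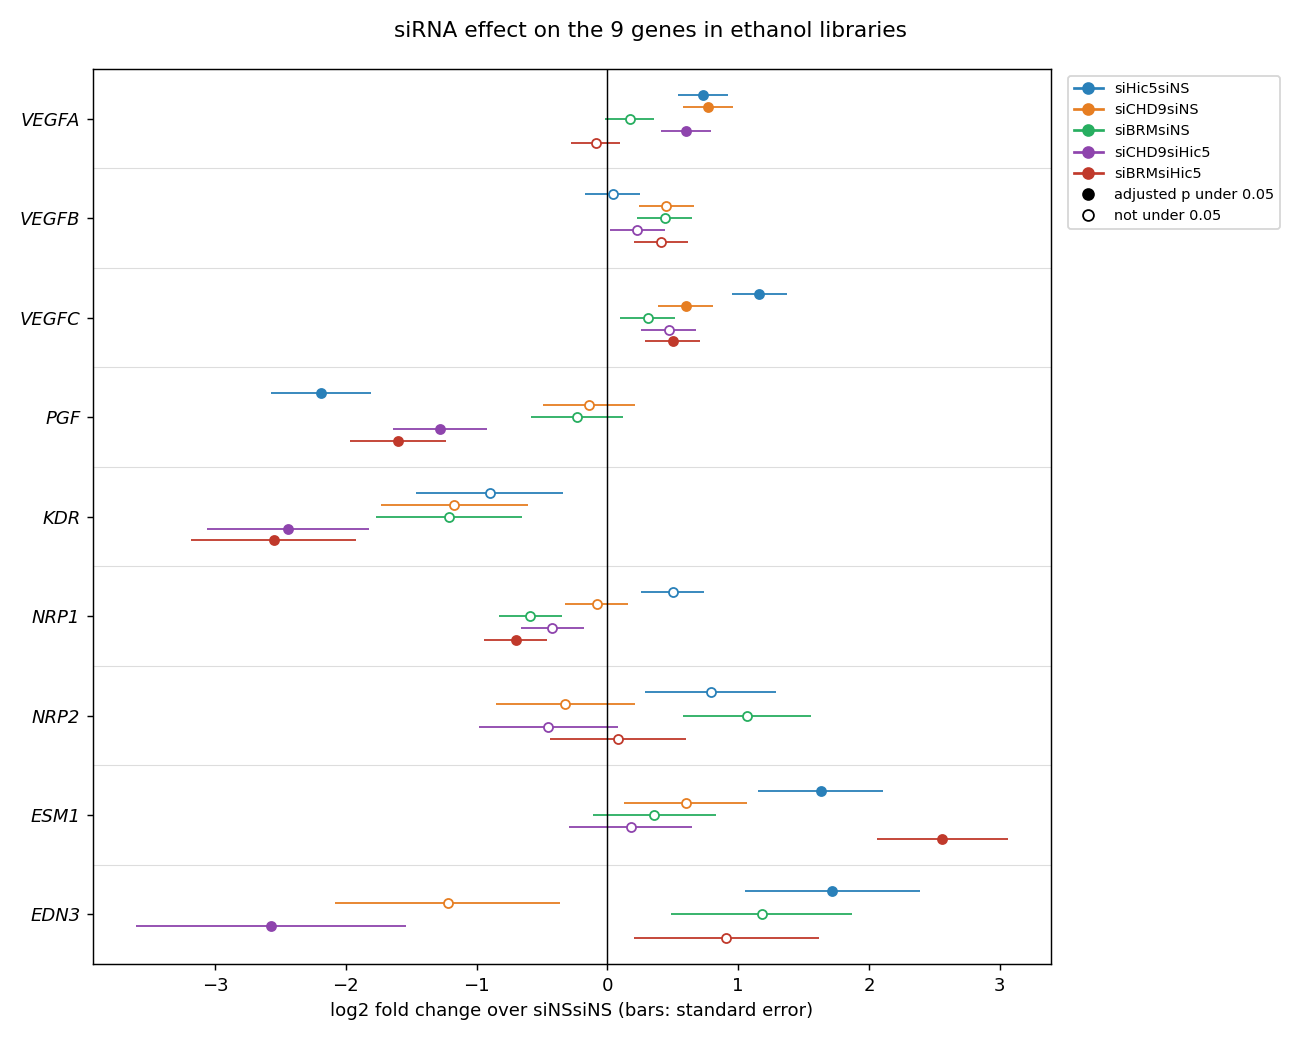
Log2 fold change over siNSsiNS in the ethanol libraries for the 9 genes and 5 siRNA conditions, with bars for the standard error (3 libraries a group). Filled points passed an adjusted p of 0.05. PGF and KDR lie left of 0 in all 5 conditions, VEGFC and ESM1 right of 0, and EDN3 on both sides.

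VEGFA without hormone was 1.65-fold the control with siHic5siNS (adjusted p = 0.00248), 1.7-fold with siCHD9siNS (0.00324) and 1.51-fold in the libraries labelled siCHD9siHic5 (0.0106). In these the vehicle libraries, at 99.6 to 164, 120 to 152 and 104 to 131 CPM, all lay above the control range of 72.5 to 88. The calls stayed under each library left out, the highest adjusted p being 0.0471. With siBRMsiHic5 VEGFA stood at 50.5, 70.9 and 99.8 CPM, on both sides of the control, and was 0.566 times its level in siHic5siNS (adjusted p = 9.19e-04). The difference between siBRMsiHic5 and siHic5siNS was called although replicate 3 of the former (99.8) and replicate 1 of the latter (99.6) overlapped.

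VEGFC without hormone was 2.23-fold the control with siHic5siNS (adjusted p = 5.49e-05). Its libraries, at 45.3, 34.3 and 38.1 CPM, lay above the control's 17.6, 13.9 and 21.1, and the call stayed under each library left out. With siCHD9siNS the rise was 1.51-fold (0.0313), carried by replicate 1 at 36.8 CPM against 20.2 and 22.6: without it the fold change was 0.29 (log2, adjusted p = 0.351), and without control replicate 1 or 2 the adjusted p was 0.0746 or 0.162. It was also lost with no scaling factors (0.0501). With siBRMsiHic5 it was 1.42-fold (0.0493), lost without control replicate 1 (0.0967) or 2 (0.219) and without its own replicate 2 (0.11) or 3 (0.125), with TMM factors (0.0507) and with no factors (0.0781). Both double conditions stood below siHic5siNS, at 62% of it in the libraries labelled siCHD9siHic5 (adjusted p = 0.00809) and 63.5% in siBRMsiHic5 (0.0113). These were lost without siCHD9siHic5 replicate 2 (0.073), and without siHic5siNS replicate 1 (0.0603) or siBRMsiHic5 replicate 1 (0.052).

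PGF without hormone was lower wherever the label named Hic-5. The siHic5siNS libraries, at 3.14, 5.71 and 2.2 CPM, stood at 21.9% of the control's 16, 16.3 and 17.9 (adjusted p = 2.46e-05). The libraries labelled siCHD9siHic5 stood at 41.2% (adjusted p = 0.0041) and siBRMsiHic5 at 33.1% (8.10e-04). None of the 3 groups overlapped the control, and the calls stayed under every library left out, the highest adjusted p being 0.0338. With siCHD9siNS PGF stood at 13.8, 16.2 and 15.5 CPM and with siBRMsiNS at 17.3, 17.9 and 7.72, both overlapping the control and not called. The libraries labelled siCHD9siHic5 stood 1.88-fold above siHic5siNS (0.0446), with overlap, and that call was lost without siHic5siNS replicate 1 (0.127) or 3 (0.206) and without siCHD9siHic5 replicate 2 (0.292) or 3 (0.0501).

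KDR without hormone stood at 18.4% of the control in the libraries labelled siCHD9siHic5 (adjusted p = 0.00165) and at 17.1% in siBRMsiHic5 (0.00165). These groups held 31 and 27 counts in all against 142 in the control, and no library overlapped the control's 0.649 to 2.63 CPM. Both calls stayed under every library left out, the highest adjusted p being 0.0262. The single siRNA conditions stood at 53.6% (siHic5siNS), 44.3% (siCHD9siNS) and 43.2% (siBRMsiNS) of the control, overlapped it, and were not called (adjusted p of 0.176, 0.109 and 0.172). Against siHic5siNS the double conditions stood at 34.4% (0.0488) and 31.9% (0.0376), which were weaker calls. The first was lost without any one siCHD9siHic5 library or siHic5siNS replicate 2 or 3 (highest adjusted p 0.154) and with TMM factors (0.0546). The second was lost without replicate 2 or 3 of either group (highest 0.113).

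ESM1 without hormone was highest in siBRMsiHic5, at 79.4, 119 and 125 CPM against 14.7, 7.37 and 32.6 in the control, a 5.9-fold rise (adjusted p = 1.41e-04). With siHic5siNS, at 72.2, 37.4 and 59.9 CPM, it was 3.09-fold the control (0.00585). Neither group overlapped the control, and both calls stayed under each library left out, the highest adjusted p being 0.0451. Control replicates themselves ran from 7.37 to 32.6 CPM, and siBRMsiNS stood at 13.6, 44.8 and 12 CPM. The libraries labelled siCHD9siHic5, at 20.9, 15.8 and 25.6 CPM, stood at 36.8% of siHic5siNS (0.0144), a call lost without siHic5siNS replicate 1 (0.0581) or siCHD9siHic5 replicate 2 (0.0617). The step up from siHic5siNS to siBRMsiHic5, 1.91-fold, did not pass (0.101) although the libraries did not overlap.

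EDN3 without hormone was 3.3-fold the control with siHic5siNS (adjusted p = 0.0324), on 73 counts in all against 22, and lost that call without control replicate 1 (0.0686) or 2 (0.137) or siHic5siNS replicate 2 (0.204). In the libraries labelled siCHD9siHic5 it was called lower than the control (-2.57 ± 1.03, adjusted p = 0.0365) and lower than siHic5siNS (-4.30 ± 0.88, 2.19e-04), on the 4 counts given above. The first was lost without control replicate 1 or 3 or any one siCHD9siHic5 library (highest adjusted p 0.179), and the second stayed called under each library left out (highest 0.00248). With siCHD9siNS (-1.22 ± 0.86), siBRMsiNS (1.18 ± 0.69) and siBRMsiHic5 (0.91 ± 0.71) it was not called.

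NRP1 without hormone was lower than the control with siBRMsiHic5, at 136, 86.4 and 116 CPM against 236, 143 and 172 (61.4%, adjusted p = 0.016), a call lost without control replicate 1 (0.132) or siBRMsiHic5 replicate 2 (0.0921). Against siHic5siNS, which had the highest NRP1, the libraries labelled siCHD9siHic5 stood at 52.6% (0.00211) and siBRMsiHic5 at 43.3% (1.60e-04), and both calls stayed under each library left out. NRP2 was called once, lower in the libraries labelled siCHD9siHic5 than in siHic5siNS (42.4%, adjusted p = 0.0463, on 44 counts against 88). That call was lost without siCHD9siHic5 replicate 1 (0.178) or 2 (0.0699) and without siHic5siNS replicate 2 (0.194) or 3 (0.073). VEGFB was not called in the 7 vehicle comparisons, with fold changes from 1.02 to 1.36, but a block for the replicate number, which did not meet the rule for pairs across conditions, called it in 4 of them. Against siHic5siNS, the libraries labelled siCHD9siHic5 had 1 of the 9 higher and 6 lower, and siBRMsiHic5 had 0 higher and 4 lower, beside 47.7% and 49.4% of all genes called.

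As a description of shared patterns, the tested genes with the closest profile to each member were listed, by Pearson correlation of log2 levels over the 12 group means. EDN3 ran most closely with IP6K3 (r = 0.974) and LOC100506585 (0.967), and KDR with KIAA1211L (0.947). VEGFA ran with LINC01004 (0.939), VEGFB with ATP5SL (0.944), VEGFC with ANTXR2 (0.945), PGF with GALK1 (0.956), NRP1 with HSD3B7 (0.968) and ESM1 with ZNF674-AS1 (0.920). NRP2 was left out because its mean CPM was under 1. Among the members, the largest correlations were VEGFB with NRP1 (-0.72), VEGFA with VEGFC (0.69) and ESM1 with KDR (-0.64). VEGFC and PGF also ran in opposite directions (-0.64). All points share the same 36 libraries, and the closest of 15179 genes are high by selection.

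Other genes of the endothelin system were partly measured, 5 of a list of 9, and EDNRB, the main receptor of endothelin 3, is not analysed here. For dex the paired fit called 1 of them, EDNRA, a receptor for endothelin 1, which rose with siHic5siNS (0.82 ± 0.15, adjusted p = 0.00202). Of all genes 8.93% were called there, and 2.5% to 24.1% over the 6 conditions. Without hormone, against siNSsiNS, 2 rose and 1 fell in siHic5siNS and in both double conditions. EDNRA rose by 1.70 ± 0.27 with siHic5siNS, 2.26 ± 0.27 in the libraries labelled siCHD9siHic5 and 1.58 ± 0.27 with siBRMsiHic5, and ECE1, the protease that matures endothelins, by 1.02 ± 0.12, 1.34 ± 0.12 and 0.51 ± 0.12. EDN2, another endothelin precursor, fell in the same 3, with changes of -4.54 ± 0.79, -5.72 ± 0.85 and -2.34 ± 0.70. List medians were 0.06, 0.37 and 0.51 beside -0.01, -0.05 and -0.01 for all genes, of which 53.1%, 52.6% and 48.9% were called.

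The other VEGF and PDGF ligands and receptors, 8 of 9 measured, were compared in the same way without hormone. In the libraries labelled siCHD9siHic5 0 rose and 5 fell, and with siBRMsiHic5 1 rose and 4 fell, with medians of -1.30 and -1.14 beside -0.05 and -0.01 for all genes, of which 52.6% and 48.9% were called. FLT1, the receptor for PGF and VEGFB, fell by 2.11 ± 0.47 with siHic5siNS and by 1.90 ± 0.46 in the libraries labelled siCHD9siHic5. PDGFRB, a mesenchymal growth factor receptor, fell by 1.71 ± 0.27 in the latter and by 1.61 ± 0.27 with siBRMsiHic5. FLT4, the receptor for VEGFC, was lower in the libraries labelled siCHD9siHic5 than in siHic5siNS (-0.80 ± 0.28, adjusted p = 0.0185). In the paired fit for dex PDGFD fell with siHic5siNS (-0.40 ± 0.11) and PDGFRA rose with siCHD9siNS (0.43 ± 0.14).

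Class 3 semaphorins and plexins, the other binding partners of neuropilins, were all measured. Of 13, 3 rose and 4 fell with siHic5siNS, 3 and 4 in the libraries labelled siCHD9siHic5, and 0 and 6 with siBRMsiHic5, shares near the 53.1%, 52.6% and 48.9% of all genes called. The medians were 0.01, -0.31 and -0.33 beside -0.01, -0.05 and -0.01 for all genes. SEMA3G fell in all 3 conditions, with changes of -4.04 ± 0.40, -2.76 ± 0.36 and -2.42 ± 0.36. For dex, SEMA3A fell with siHic5siNS (-0.85 ± 0.25) and siCHD9siNS (-0.85 ± 0.21), and PLXNA2 rose with siCHD9siNS (0.97 ± 0.17) and siBRMsiHic5 (0.68 ± 0.17), all in the paired fit.

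In the list of angiopoietins, Tie receptors and Notch ligands 8 of 14 genes were measured. ANGPT1, the ligand that steadies vessels through TEK, fell without hormone, with changes of -2.89 ± 0.32 in siHic5siNS, -2.67 ± 0.31 in siCHD9siNS, -4.57 ± 0.36 in the libraries labelled siCHD9siHic5 and -2.77 ± 0.31 in siBRMsiHic5. Dex raised it in the libraries labelled siCHD9siHic5 (1.72 ± 0.40, adjusted p = 0.0414 unpaired). The paired fit also called a rise with siBRMsiHic5 (1.22 ± 0.26, adjusted p = 0.0092). Of the 11 measured angiogenesis inhibitors, in the paired fit ADAMTS1, a protease that binds VEGF, fell in 4 conditions, with changes of -0.74 ± 0.17 (log2) with siNSsiNS, -1.25 ± 0.19 with siHic5siNS, -1.41 ± 0.25 in the libraries labelled siCHD9siHic5 and -0.61 ± 0.16 with siBRMsiHic5. TIMP3, a metalloproteinase inhibitor that blocks VEGFA binding to KDR, fell by 0.42 ± 0.07 with siHic5siNS and by 0.30 ± 0.07 with siNSsiNS, with siCHD9siNS and in the libraries labelled siCHD9siHic5. Among 11 measured other secreted pro-angiogenic factors ADM (adrenomedullin), a vasodilator peptide, rose with siHic5siNS (1.27 ± 0.28, adjusted p = 0.015 unpaired), where its vehicle level was lower than the control by 1.79 ± 0.28 on the log2 scale. In the paired fit 1 of these 11 rose and 2 fell with siHic5siNS, and 0 rose and 3 fell with siCHD9siNS. The shares of all genes called there were 8.93% and 24.1%. FGF1 fell with siHic5siNS (-0.83 ± 0.13), siCHD9siNS (-0.67 ± 0.12), siBRMsiNS (-0.55 ± 0.12) and in the libraries labelled siCHD9siHic5 (-0.64 ± 0.12). ANGPT1 and ADM were the 2 calls for dex that the unpaired fit made over all the lists named here.

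Genes known to lie upstream and downstream of VEGFA were also listed. Of 9 measured hypoxia-inducible factors and their regulators, 4 rose and 1 fell with dex in siCHD9siNS in the paired fit, where 24.1% of all genes were called. EPAS1, or HIF-2α, rose with siHic5siNS (0.38 ± 0.09), siCHD9siNS (0.46 ± 0.09) and in the libraries labelled siCHD9siHic5 (0.57 ± 0.09). Without hormone HIF1A fell with siHic5siNS (-0.54 ± 0.11), siCHD9siNS (-0.43 ± 0.11), siBRMsiHic5 (-0.65 ± 0.11) and in the libraries labelled siCHD9siHic5 (-0.30 ± 0.11). Of the 9, 3 rose and 3 fell with siHic5siNS, and 0 rose and 5 fell with siCHD9siNS. With siBRMsiHic5 2 rose and 4 fell, and in the libraries labelled siCHD9siHic5 1 rose and 3 fell. Of all genes 53.1%, 32.3%, 48.9% and 52.6% were called in these 4 comparisons. VHL (1.10 ± 0.10) and ARNT2 (1.62 ± 0.20) rose with siHic5siNS. Of 18 hypoxia-induced genes 7 rose and 3 fell with siHic5siNS, with a median of 0.65 beside -0.01 for all genes, and the 10 calls are a share near the 53.1% of all genes called there. PDK1, which limits pyruvate use in mitochondria, rose by 1.22 ± 0.18, and LDHA, which makes lactate, fell by 1.42 ± 0.22. Of 16 genes of VEGF receptor signalling 9 rose and 2 fell with siHic5siNS, with a median of 0.54, in the same comparison and beside the same 53.1%, among them PLCG1 (0.88 ± 0.12) and PRKCB (2.41 ± 0.35), which act next to each other below KDR. SPHK1, a lipid kinase of the same route, rose in the other 4 conditions, by 0.97 ± 0.27 with siBRMsiNS to 2.45 ± 0.28 with siBRMsiHic5.

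The cell identity was checked against marker lists. Of 10 markers of the osteosarcoma and osteoblast lineage 7 were measured, and BGLAP, COL1A2 and SP7 are not analysed here. COL1A1 stood between 1153 and 3511 CPM, while the medians over the libraries were 32.2 CPM for RUNX2, 18.2 for ALPL and 8.28 for SPP1. Of 13 endothelial markers, of which FLT1, TEK and TIE1 are also in lists above, 12 were measured. None was at 0 in any library, and their summed level was 17 to 55.6 CPM. By median over the libraries the highest were ROBO4 (1.35 to 20.3 CPM), ERG (1.46 to 16.2), SOX17 (2.56 to 5.95) and VWF (0.289 to 9.03). PECAM1 stood at 0.218 to 4.31 CPM and CDH5, the lowest by median, at 0.177 to 1.82. The sum was 37.4 to 41 CPM in the siNSsiNS vehicle libraries, 24.1 to 26.7 with siCHD9siNS and 17 to 18.3 in those labelled siCHD9siHic5, the vehicle groups in which EDN3 was lowest. In siBRMsiHic5 vehicle, where the mean of KDR was lowest (0.266 CPM) and that of ESM1 highest (108 CPM), the sum was 35.3 to 51.6 CPM. Dex libraries of siNSsiNS, at 33 to 40 CPM, overlapped their vehicle libraries. The part of the endothelial marker level in the results for KDR, ESM1 and EDN3 was not tested. Of 6 epithelial markers 5 were measured, summing to 228 to 872 CPM. Most of that sum was KRT8 (86.2 to 414 CPM) and KRT18 (103 to 455). CLDN4 stood at 8.49 to 55.9 CPM, EPCAM at 1.69 to 4.84 and CDH1 at 0.222 to 1.9. Of 6 blood cell markers 1 was measured, ITGAM, at 1.59 to 7.09 CPM.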

How the data were processed

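RNA was extracted with TRIzol from replicates made on different days, per the labels' protocols. The deposited table is titled as CPM with upper-quartile normalization, but its values are whole numbers whose totals and upper quartiles (1732 to 2973) differ between libraries, so they were taken as read counts per gene as the authors deposited them. Levels, tests and counting intervals rest on that reading. The submitters' processing notes name TopHat2 2.1.1, edgeR and GRCh38; the counter, the annotation and the use of strand have no source here, and reads of antisense or overlapping genes cannot be told apart. Gene coordinates are from GENCODE v29 (GRCh38) and promoter sequences from RefSeq (GRCh38.p14).

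The genes and lists were chosen with earlier results of these data known. Beside the 9 genes, the text names the siRNA targets, NR3C1, genes of closest profile (of 3 listed each) and, per list and comparison, up to 3 called genes with the smallest p. Counts were scaled with upper-quartile factors, genes with a scaled CPM above 1 in at least 3 of 36 libraries were tested (15179 of 15186), and 12 group means were fitted with edgeR 4.0.16 (R 4.3.3, limma 3.58.1) with 24 residual degrees of freedom, p-values being adjusted over all tested genes. The paired fit had 12 residual degrees of freedom. Vehicle and dex libraries of one condition and number were taken as pairs, since replicates were made on different days per the labels and their residuals correlated in all 18 pairs (r = 0.458 to 0.922). Of the 36 libraries, 34 correlated most with their own partner. Vehicle replicates 2 of siNSsiNS and siCHD9siNS correlated most with each other (r = 0.722, against 0.458 and 0.586 with their partners). Biological variation between replicates (median over genes, as a coefficient of variation) came to 15.9%, or 6.81% once pairs were in the fit. No 2 libraries of a group agreed within counting noise. Profiles were compared on log2(CPM + 0.5). Exact counting intervals (Clopper-Pearson) cover counting error only. The scripts were tested on simulated data. Alternatives were TMM or no factors, other filters, DESeq2 1.42.0, pairing, and leaving out each library or pair.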

Additional observations from a re-analysis of the deposited data

Results flagged for a closer look

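A difference in the response of PGF was singled out because 2 conditions differed under the same contrast by a test of the difference itself. The dex response of PGF in the libraries labelled siCHD9siHic5 minus that in siHic5siNS was -1.45 on the log2 scale in the paired fit. The unpaired fit gave the same size and did not call it, and no pair could be left out without losing the call.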

How the results depend on the processing

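The number of the 9 genes called moved most with the replicate block, the term for each vehicle and dex pair. Without it dex gave 1, 0, 2, 0, 2 and 1 calls in siNSsiNS, siHic5siNS, siCHD9siNS, siBRMsiNS, siCHD9siHic5 and siBRMsiHic5, and with it 3, 6, 5, 1, 3 and 3. With the block, TMM factors and no factors each gave 3 for siNSsiNS, 6 for siHic5siNS, 5 for siCHD9siNS, 1 for siBRMsiNS and 3 for siBRMsiHic5. For the difference siCHD9siHic5 minus siHic5siNS the block gave 1 call with upper-quartile, TMM or no factors, against 0 without it, and with TMM it also gave 1 for siHic5siNS minus siNSsiNS. Leaving out a pair with the block gave 1 call for siNSsiNS without pair 1 and 3 without pair 2 or 3, 4 for siHic5siNS (each pair), 2, 4 and 5 for siCHD9siNS (pairs 1, 2 and 3), 2, 3 and 2 for siCHD9siHic5, 1 for siBRMsiNS (each pair), 3 for siBRMsiHic5 (each pair), and 1 for the difference siCHD9siNS minus siNSsiNS (siNSsiNS pair 2). DESeq2 called 2 for siNSsiNS, 2 for siHic5siNS and 1 for siBRMsiNS. Without scaling factors siNSsiNS had 2, and siCHD9siHic5 had 1 with TMM factors and 1 with the filter in 12 libraries. In vehicle, no factors gave 1 for siCHD9siNS, and a block for the replicate number across conditions, whose residuals did not correlate in all pairs (r = -0.242 to 0.722), gave 2 for siBRMsiNS. That block added 6 vehicle calls in all: VEGFB against siNSsiNS in siCHD9siNS (adjusted p = 0.0136), siBRMsiNS (0.0479) and siBRMsiHic5 (0.0192), VEGFB in siBRMsiHic5 against siHic5siNS (0.0264), and NRP1 against siNSsiNS in siHic5siNS (0.015) and siBRMsiNS (0.0412). Leaving out 1 library without the block gave 0 to 1 calls for the dex response in siNSsiNS, 1 to 2 in siCHD9siNS, 0 to 1 in siBRMsiNS, 1 in siCHD9siHic5 whichever library was left out and 0 to 1 in siBRMsiHic5. In vehicle it gave 1 to 4 for siCHD9siNS, 3 to 5 for siBRMsiHic5 minus siNSsiNS and 2 to 5 for siCHD9siHic5 minus siHic5siNS, against 7 with all libraries. No called value changed sign in any alternative run. Of the calls, 11 of 21 for dex with the block, 2 of 6 without it, 0 of 1 for the differences and 15 of 27 in vehicle stayed called under every library or pair left out. Under the other settings 21 of 21, 5 of 6, 1 of 1 and 24 of 27 stayed called. The cause of these changes was not tested. Depth limits EDN3, KDR and NRP2 most, which had as few as 1, 8 and 7 counts in a library.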
